A study of Homo sapiens with 18 samples.

Results

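The 10 genes ST8SIA5, ST8SIA1, ST3GAL5, ST3GAL2, ST8SIA4, ST6GALNAC3, B4GALNT1, B3GALT4, UGCG and NEU3, which build, sialylate or trim gangliosides and other sialylated molecules, were followed through RNA-seq of melanoma cells with and without added MAFG. They were found by symbol and make up 10 of the 58870 gene rows of the count table. The set was chosen from measured values of these same libraries, so levels and changes of these 10 genes are given as a description, with standard errors and without p-values. The 18 libraries came from 3 human melanoma lines, WM164, SKMEL28 and A375, each overexpressing either MAFG or the control protein GFP, with 3 libraries in each of the 6 groups. MAFG is a small MAF transcription factor, which binds DNA paired with another basic leucine zipper protein. Both proteins were delivered by a lentivirus with an EF1α promoter and blasticidin resistance, so control cells also carried a vector and had been through selection, and every group grew in RPMI with 5% serum. The sources used here do not say whether the 3 libraries of a group came from separate cultures, so every p-value below measures only the spread between these libraries, which may be technical.

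Gangliosides are sphingolipids of the outer cell membrane that carry sialic acid. UGCG puts glucose on ceramide, B4GALT5 and B4GALT6 add galactose to give lactosylceramide, and ST3GAL5 adds the first sialic acid to make GM3. ST8SIA1 adds a further sialic acid to give GD3, and ST8SIA5 can extend the sialic acid chain again, toward GT3 and related lipids. B4GALNT1 turns GM3 and GD3 into GM2 and GD2, B3GALT4 lengthens these to GM1 and GD1b, and ST3GAL2 and ST6GALNAC3 add terminal sialic acids. ST8SIA4 builds polysialic acid on proteins such as NCAM1, and NEU3 is the plasma membrane sialidase that removes sialic acid from gangliosides. GD3 and GD2 are well-known cell surface antigens of melanoma. RNA levels do not measure these lipids, which were not analysed here.

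Assigned reads per library ranged from 20122172 to 39025042, with a median of 31061375. MAFG itself was higher with the MAFG vector in all 3 lines, by 1.04 ± 0.09 (SE) on the log2 scale in WM164 (adjusted p = 6.37e-08, edgeR quasi-likelihood test with Benjamini-Hochberg adjustment, as for every adjusted p below), by 0.64 ± 0.10 in SKMEL28 (adjusted p = 0.000128) and by 0.80 ± 0.17 in A375 (adjusted p = 0.0655, groups not overlapping). In TPM, the authors' transcript-based and length-scaled estimate, MAFG went from 2.89 ± 0.543 to 24.5 ± 3.34 (SD, n = 3) in WM164, from 3.96 ± 0.641 to 17.0 ± 2.66 in SKMEL28 and from 4.22 ± 0.291 to 25.2 ± 2.88 in A375, so the 2 scales differ in the size of the overexpression. The library A375 MAFG replicate 1 stood apart from its group: the mean chi-square between libraries over genes was 68.7 and 96.7 against replicates 2 and 3, and 15.8 between replicates 2 and 3. Without it the genes called in A375 numbered 153 in place of 105. Of 8 melanocyte markers, MLANA, TYR and DCT had at most 3 counts in every A375 library, although this line is labelled as melanoma too. None of the 8 was that low throughout a group of WM164 or SKMEL28, apart from TYRP1 in the MAFG libraries of WM164. TYRP1 was scarce in both groups of WM164, at 0 to 5 counts with GFP and 0 to 2 with MAFG. The summed level of the 8 markers, in CPM (read counts scaled to library size, here over all 18 libraries), went from 4695–5029 with GFP to 2638–2767 with MAFG in WM164, from 4842–5105 to 4233–4462 in SKMEL28 and from 36.1–42.2 to 120–173 in A375, where SOX10 made up most of the sum with MAFG, at 97.9–142 CPM. In bulk RNA, fewer cells of a kind and less RNA per cell cannot be told apart. Summed markers of leukocytes (5 genes), endothelial cells (4) and keratinocytes (4) did not pass 2.44 CPM in any library, and those of fibroblasts (4) lay between 3.12 and 26.0 CPM.

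RefSeq promoter windows on GRCh38.p14 matched 6 of the 10 genes, with 11 windows in all: ST8SIA1, ST3GAL5, ST8SIA4, ST6GALNAC3, UGCG and NEU3. ST8SIA5, ST3GAL2, B4GALNT1 and B3GALT4 had none. The 250 bases before each start were searched on both strands for 4 short motifs. The E-box core CACGTG, which is its own reverse complement, was present in 6.34% of 35116 promoter windows of this length. The E-box form known as a MITF site, CATGTG, was present in 9.42% of them. The flanking part of MAF recognition elements, TGCTGA, was present in 14.0%. The core of AP-1 sites, TGACTCA, was present in 4.2% and can overlap with the flank in a full MAF site. The E-box core was found in ST6GALNAC3, 119 bases before the start, and the MAF flank in the last pair of the 5 ST3GAL5 windows, which start close together and share that match, 32 and 36 bases before their starts. The ST8SIA1 window, shown because this gene had the largest difference in level between lines among the 6, held none of the 4. The windows below are written 5′ to 3′ on the gene's strand with the matched letters in capitals: ST8SIA1 at chr12:22334708-22334957 (minus), the fourth ST3GAL5 window at chr2:85854176-85854425 (minus) and ST6GALNAC3 at chr1:76074496-76074745 (plus). A match is a description of letters and not a binding site.
ST8SIA1: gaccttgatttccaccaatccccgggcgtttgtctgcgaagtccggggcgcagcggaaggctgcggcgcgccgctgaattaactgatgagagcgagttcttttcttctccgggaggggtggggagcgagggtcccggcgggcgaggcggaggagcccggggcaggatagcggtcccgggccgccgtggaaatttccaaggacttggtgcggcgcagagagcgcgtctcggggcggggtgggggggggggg
ST3GAL5: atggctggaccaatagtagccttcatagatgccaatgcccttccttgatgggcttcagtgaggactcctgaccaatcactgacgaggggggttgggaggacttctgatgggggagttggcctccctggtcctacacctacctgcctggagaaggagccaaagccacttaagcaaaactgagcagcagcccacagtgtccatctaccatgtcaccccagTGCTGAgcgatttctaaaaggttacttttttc
ST6GALNAC3: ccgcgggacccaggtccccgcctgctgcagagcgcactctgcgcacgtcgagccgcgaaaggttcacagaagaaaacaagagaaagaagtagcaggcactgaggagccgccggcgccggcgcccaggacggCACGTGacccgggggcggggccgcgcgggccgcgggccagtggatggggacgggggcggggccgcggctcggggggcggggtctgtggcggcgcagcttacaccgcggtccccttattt

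ST8SIA5 went from near absence in WM164 cells with GFP to a level like that of ST3GAL5 with MAFG, with overlapping libraries per length (12.8–13.9 against 11.7–13.3 TPM). The gene lies at chr18:46667821-46759257 on the minus strand (GRCh38), where a divergent noncoding RNA, ST8SIA5-DT, overlaps it by 2771 bases on the opposite strand. The WM164 GFP libraries held 18, 26 and 18 reads and the MAFG libraries 2804, 2896 and 3464, which is 0.609, 0.813 and 0.672 CPM against 92.8, 101 and 101 CPM when scaled within the line. The groups lay far apart and the fitted difference was 7.12 ± 0.11 (SE, n = 3 against 3) on the log2 scale, a 139-fold higher level. This SE was derived from the F statistic of the test, and with so few GFP reads it may understate the uncertainty. The summed melanocyte markers were lower with MAFG in this line. DCT, PMEL and MLANA carried most of that difference, while SOX10 (1321–1429 CPM with GFP, 1321–1340 with MAFG) and S100B (204–221 and 209–223 CPM) overlapped. The part of these markers in the ST8SIA5 values was not tested.

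In SKMEL28 the same gene stayed at the limit of detection. No read was assigned to ST8SIA5 in any of the 3 GFP libraries, which allows up to 3 reads in each, or 0.0995–0.149 CPM of the unscaled library totals for counting error alone, and the MAFG libraries held 0, 3 and 0 reads. Both groups were at or under this floor, so no fold was computed. In A375 the GFP libraries held 3, 6 and 0 reads and the MAFG libraries 53, 27 and 36, or 0.0868, 0.181 and 0 CPM against 1.43, 0.803 and 0.946 CPM. The A375 groups did not overlap and the fitted difference was 3.52 ± 0.88 (SE), but the A375 level with MAFG was close to that of WM164 with GFP and far under WM164 with MAFG. In TPM the A375 values were 0.15, 0.01 and 0 with GFP and 0.22, 0.04 and 0.05 with MAFG, and these overlapped. In the plot of levels by library, the WM164 MAFG group of ST8SIA5 stands above the other 5 groups.

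**Figure D1:**
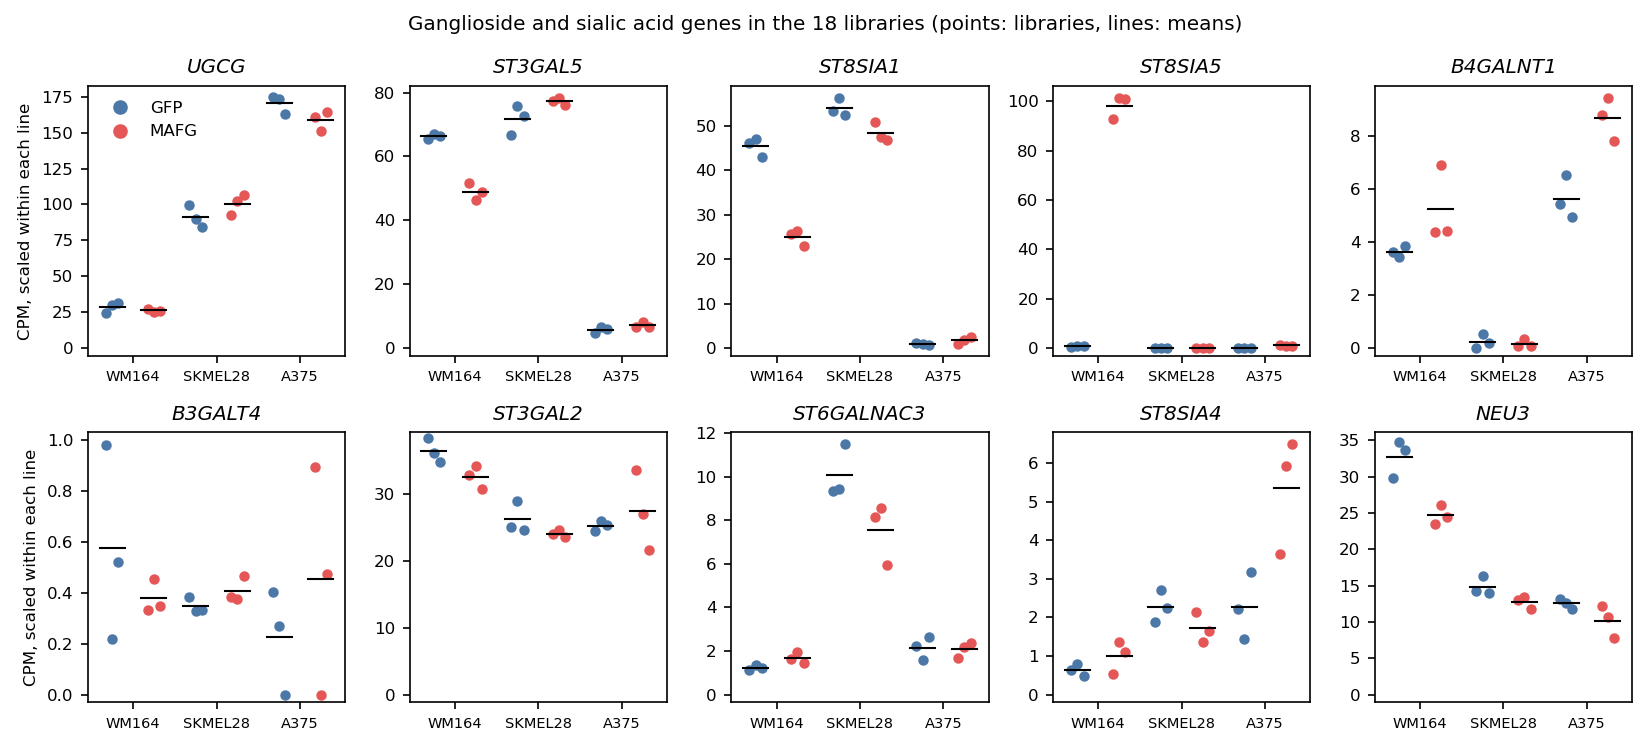
Level of each of the 10 genes in every library, in CPM scaled within each line (vertical axes start near 0 and differ between panels). Points are libraries, short lines are group means, blue is GFP and red is MAFG, and ST8SIA5 at 92.8 to 101 CPM in WM164 with MAFG stands apart from all other groups, which lie at or under 1.43 CPM.

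ST8SIA1, the GD3 synthase, was lower with MAFG in WM164, where ST8SIA5 was higher. It lies at chr12:22063773-22437041 on the minus strand. The GFP libraries of WM164 had 46.1, 47.0 and 42.8 CPM and the MAFG libraries 25.7, 26.3 and 23.0 CPM, a difference of -0.86 ± 0.08 (SE) on the log2 scale. In SKMEL28 the values were 53.3, 56.1 and 52.4 CPM with GFP and 50.8, 47.4 and 46.8 CPM with MAFG, also without overlap but with a smaller difference of -0.16 ± 0.07. In A375 the gene was scarce, at 39, 27 and 19 reads with GFP and 37, 60 and 95 reads with MAFG, and the groups overlapped around a fitted difference of 1.06 ± 0.48. Among GFP libraries, ST8SIA1 was 62.4-fold higher in WM164 and 73.5-fold higher in SKMEL28 than in A375, by the model of all 18 libraries. The labels describe the library kit as non-stranded and the study's methods as strand-specific, and whether counting used strand was not stated. ST8SIA1 overlaps by 1902 bases CMAS, which makes the activated sialic acid donor and runs on the opposite strand, so reads there may not be told apart.

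ST3GAL5, the GM3 synthase at chr2:85837120-85905199 (minus), was lower with MAFG in WM164 and slightly higher in the other lines. WM164 went from 65.4, 67.1 and 66.4 CPM with GFP to 51.7, 46.2 and 48.9 CPM with MAFG, a difference of -0.44 ± 0.06 (SE). SKMEL28 had 66.7, 75.7 and 72.6 CPM with GFP and 77.3, 78.4 and 76.1 CPM with MAFG, a difference of 0.11 ± 0.06. The SKMEL28 groups only just cleared each other, and scaled over all 18 libraries they overlapped. A375 had 4.80, 6.50 and 5.88 CPM with GFP and 6.63, 8.30 and 6.62 CPM with MAFG, a difference of 0.33 ± 0.20. Here too the separation was lost with scaling over all 18 libraries. On the log2(TPM + 1) scale the A375 difference was -0.11, where the median over all genes was -0.103. Like ST8SIA1, ST3GAL5 was scarce in A375, where GFP levels by counts were 13.6-fold under WM164 and 14.5-fold under SKMEL28. By counts, WM164 and SKMEL28 themselves differed by -0.10 ± 0.09 on the log2 scale. In TPM, however, the GFP libraries of WM164 (12.0–17.4) lay under those of SKMEL28 (26.8–35.3) without overlap, with A375 at 1.95–3.09. ST3GAL5-AS1, an antisense RNA, overlaps the gene by 1986 bases.

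UGCG, the first committed step, was highest in A375, the line in which ST3GAL5 and ST8SIA1 were lowest. The gene lies at chr9:111896814-111935369 (plus). In A375 the GFP libraries had 163 to 175 CPM, in SKMEL28 84.4 to 99.4 CPM and in WM164 24.7 to 31.4 CPM. The GFP level in A375 was 5.07-fold above WM164 and 1.60-fold above SKMEL28. MAFG and GFP libraries overlapped in all 3 lines, with differences of -0.13 ± 0.09 in WM164, 0.14 ± 0.07 in SKMEL28 and -0.10 ± 0.09 in A375. The first of these had the opposite sign, 0.16, on the log2(TPM + 1) scale, where the WM164 median over all genes was 0.137.

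B4GALNT1, which opens the branch to GM2 and GD2, was higher with MAFG in WM164 and A375 and all but missing from SKMEL28. It lies at chr12:57623409-57633239 (minus). WM164 had 3.62, 3.44 and 3.85 CPM with GFP and 4.37, 6.88 and 4.43 CPM with MAFG, a difference of 0.52 ± 0.20 (SE). A375 had 5.44, 6.50 and 4.94 CPM with GFP and 8.77, 9.40 and 7.81 CPM with MAFG, a difference of 0.62 ± 0.18. Neither pair of groups overlapped. SKMEL28 held 0, 11 and 6 reads with GFP and 2, 10 and 2 with MAFG, too few for the fit, and its GFP level was 17.1-fold under WM164 and 22.6-fold under A375. The span of a protein-coding gene on the opposite strand overlaps that of B4GALNT1 by 2717 bases. Reads there may not be told apart if strand was ignored, and how they were assigned is not known here.

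B3GALT4 and ST3GAL2 act later on the same route. B3GALT4, at chr6:33277123-33284832 (plus), held 0 to 33 reads per library and had differences of -0.60 ± 0.57 in WM164, 0.23 ± 0.56 in SKMEL28 and 1.0 ± 1.3 in A375, with all groups overlapping. WDR46, on the opposite strand, covers 5725 bases of B3GALT4. ST3GAL2, at chr16:70375977-70439237 (minus), went from 38.3, 36.1 and 34.6 CPM to 32.8, 34.2 and 30.6 CPM in WM164, a difference of -0.16 ± 0.08 without overlap. Its SKMEL28 and A375 libraries, at 23.5 to 28.9 and 21.5 to 33.6 CPM, overlapped between GFP and MAFG. In TPM, however, SKMEL28 had 5.04, 6.33 and 6.48 with GFP and 4.53, 3.21 and 3.0 with MAFG, without overlap, while the WM164 groups overlapped.

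ST6GALNAC3, at chr1:76074746-76634603 (plus) and with the CACGTG shown above, had fitted differences of opposite sign in WM164 and SKMEL28. WM164 had 1.12, 1.34 and 1.23 CPM with GFP and 1.65, 1.96 and 1.46 CPM with MAFG, a difference of 0.45 ± 0.32 (SE). SKMEL28 had 9.36, 9.44 and 11.5 CPM with GFP and 8.18, 8.56 and 5.96 CPM with MAFG, a difference of -0.42 ± 0.16. In both lines the groups did not overlap, and in A375, at 1.60 to 2.64 CPM, they did. This pattern was not seen in TPM, where the WM164 groups (0.12–0.52 and 0.34–0.42) and the SKMEL28 groups (3.02–4.37 and 2.67–3.74) overlapped, and in A375 the MAFG libraries, at 0.24–0.49, lay under the GFP libraries, at 0.53–0.79. GFP levels in SKMEL28 were 8.10-fold above WM164 and 5.45-fold above A375.

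ST8SIA4, the polysialyltransferase at chr5:100806933-100903282 (minus), was higher with MAFG in A375. The A375 libraries had 2.23, 1.45 and 3.17 CPM with GFP and 3.65, 5.92 and 6.49 CPM with MAFG, a difference of 1.23 ± 0.33 (SE) without overlap. In WM164 the libraries had 0.642, 0.782 and 0.485 CPM with GFP and 0.529, 1.36 and 1.11 CPM with MAFG, and in SKMEL28 1.88, 2.71 and 2.25 against 2.14, 1.37 and 1.65 CPM, and both pairs overlapped. The summed melanocyte markers of A375 were likewise higher with MAFG. SOX10 carried most of this (6.93–11.5 CPM with GFP, 97.9–142 with MAFG), while MITF overlapped (27.1–29.7 and 20.4–32.3 CPM). The part of these markers in the ST8SIA4, ST8SIA5 and B4GALNT1 values of this line was not tested. Without A375 MAFG replicate 1 the fitted differences in this line were 1.44 for ST8SIA4, 3.24 for ST8SIA5, 0.61 for B4GALNT1, 1.34 for ST8SIA1 and 0.38 for ST3GAL5. B3GALT4 then had 0.08 in place of 1.0, and 2 genes changed sign. These were ST3GAL2, at -0.06 in place of 0.12, and ST6GALNAC3, at 0.08 in place of -0.05. UGCG had -0.11 and NEU3 -0.45.

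NEU3, the sialidase at chr11:74988279-75018893 (plus), had a negative fitted difference in all 3 lines. WM164 had 29.8, 34.7 and 33.7 CPM with GFP and 23.5, 26.2 and 24.5 CPM with MAFG, a difference of -0.41 ± 0.08 (SE). SKMEL28 had 14.2, 16.3 and 14.0 CPM with GFP and 13.1, 13.5 and 11.8 CPM with MAFG, a difference of -0.21 ± 0.11. A375 had 13.2, 12.6 and 11.8 CPM against 12.2, 10.7 and 7.75 CPM, a difference of -0.30 ± 0.18, and here the groups overlapped. GFP levels were highest in WM164, then SKMEL28, then A375, with WM164 2.24-fold above SKMEL28 and SKMEL28 1.37-fold above A375.

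**Figure D2:**
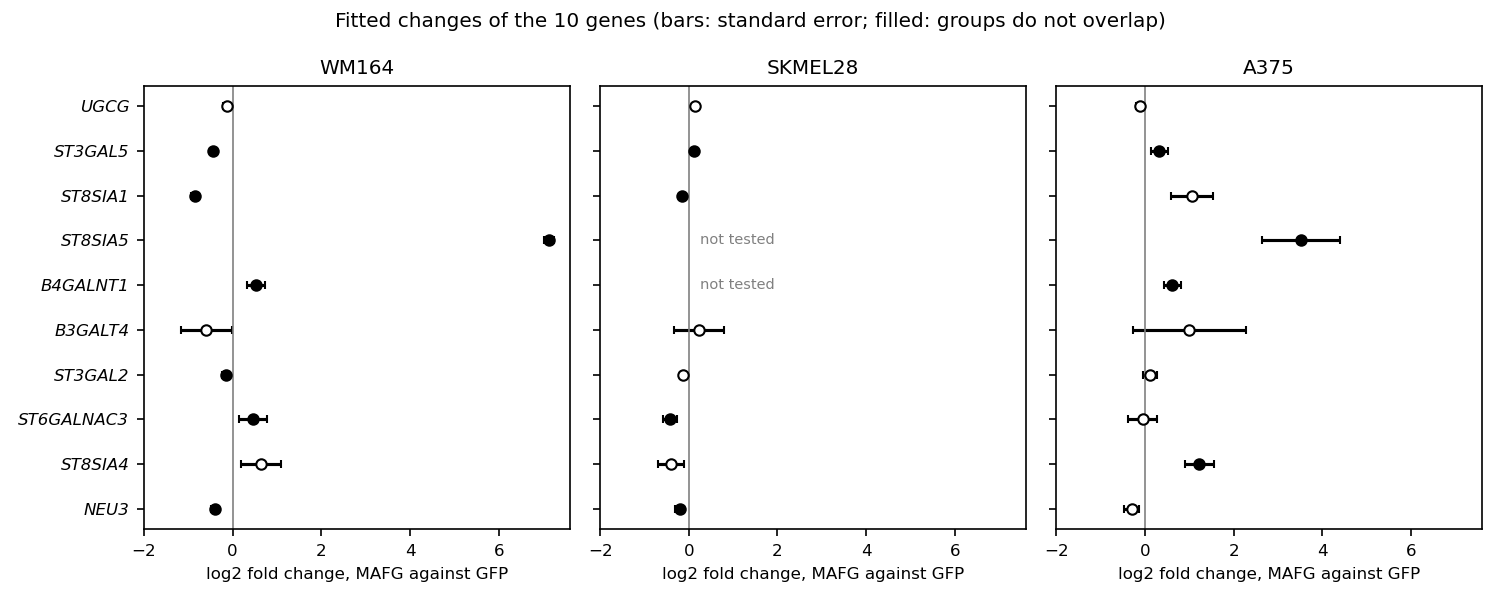
Fitted log2 fold change of MAFG against GFP (horizontal axis) for each gene in each line. Bars are the standard error and filled points mark genes whose MAFG and GFP libraries did not overlap, and ST8SIA5 in WM164, at 7.12, lies far to the right of every other point.

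Counted together, all 10 genes passed the low-count filter in WM164 and A375 and 8 in SKMEL28. With the study's thresholds, an adjusted p of at most 0.05 and a change over 2-fold, 1 member was higher and 0 lower in WM164, beside 4.94% and 2.0% of the 15919 genes tested there. In SKMEL28, 0 members passed in either direction, beside 1.76% higher and 2.98% lower of 15523 genes, and in A375 also 0, beside 0.646% higher and 0.0190% lower of 15779 genes. By the adjusted p alone, WM164 had 1 member higher (ST8SIA5) and 3 lower (ST8SIA1, ST3GAL5 and NEU3), beside 16.2% and 15.6% of all genes, SKMEL28 had 0 beside 14.6% and 15.3%, and A375 had 0 beside 0.780% and 0.0634%. MAFG and GFP libraries did not overlap for 7 members in WM164, 4 in SKMEL28 and 4 in A375, beside 43.4%, 43.0% and 12.8% of all genes. The rule used these contrasts, so nothing is read from the counts. WM164 and SKMEL28 each gave the tested members a median log2 fold change of -0.14 and A375 one of 0.47, beside medians over all genes within 0.01 of 0. The A375 median includes MAFG replicate 1, which stood apart, and the value of each member without that library is given above. In TPM the groups overlapped for ST3GAL5 in all 3 lines, for B4GALNT1, NEU3, ST3GAL2 and ST6GALNAC3 in WM164, for ST6GALNAC3 in SKMEL28 and for ST8SIA4 and ST8SIA5 in A375, all of which were separate in CPM, while ST8SIA4 in WM164 and SKMEL28, ST3GAL2 in SKMEL28 and ST6GALNAC3 in A375 were separate in TPM alone.

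Compared per length, the order of the group means of the 10 genes differed between lines and, in each line, between GFP and MAFG. In A375 the genes that changed places had overlapping libraries in both groups. In WM164 with GFP, ST3GAL5 led at 15.2 ± 2.87 TPM (SD, n = 3), next to ST8SIA1 at 13.8 ± 1.16 TPM, whose libraries overlapped it, and ST8SIA5 was eighth at 0.253 ± 0.197 TPM. With MAFG, ST8SIA5 led at 13.4 ± 0.557 TPM, overlapping ST3GAL5 at 12.7 ± 0.867 TPM, and both were clear of ST8SIA1 at 8.92 ± 0.627 TPM. In SKMEL28 with GFP, ST3GAL5 at 30.5 ± 4.40, ST8SIA1 at 25.4 ± 2.91 and UGCG at 24.0 ± 3.51 TPM formed an overlapping leading group, clear of ST3GAL2 at 5.95 ± 0.792 TPM. With MAFG the same 3 led and no longer overlapped, with ST3GAL5 at 33.7 ± 2.68, UGCG at 23.8 ± 1.77 and ST8SIA1 at 19.3 ± 1.43 TPM. In A375, UGCG stood alone, at 39.8 ± 6.99 TPM with GFP and 33.7 ± 4.67 TPM with MAFG, ahead of ST3GAL2 at 4.51 ± 2.16 and 4.71 ± 1.71 TPM. ST8SIA1 was at 0.613 ± 0.358 TPM in A375 with GFP and 0.650 ± 0.364 with MAFG, among genes whose libraries overlapped one another.

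**Figure D3:**
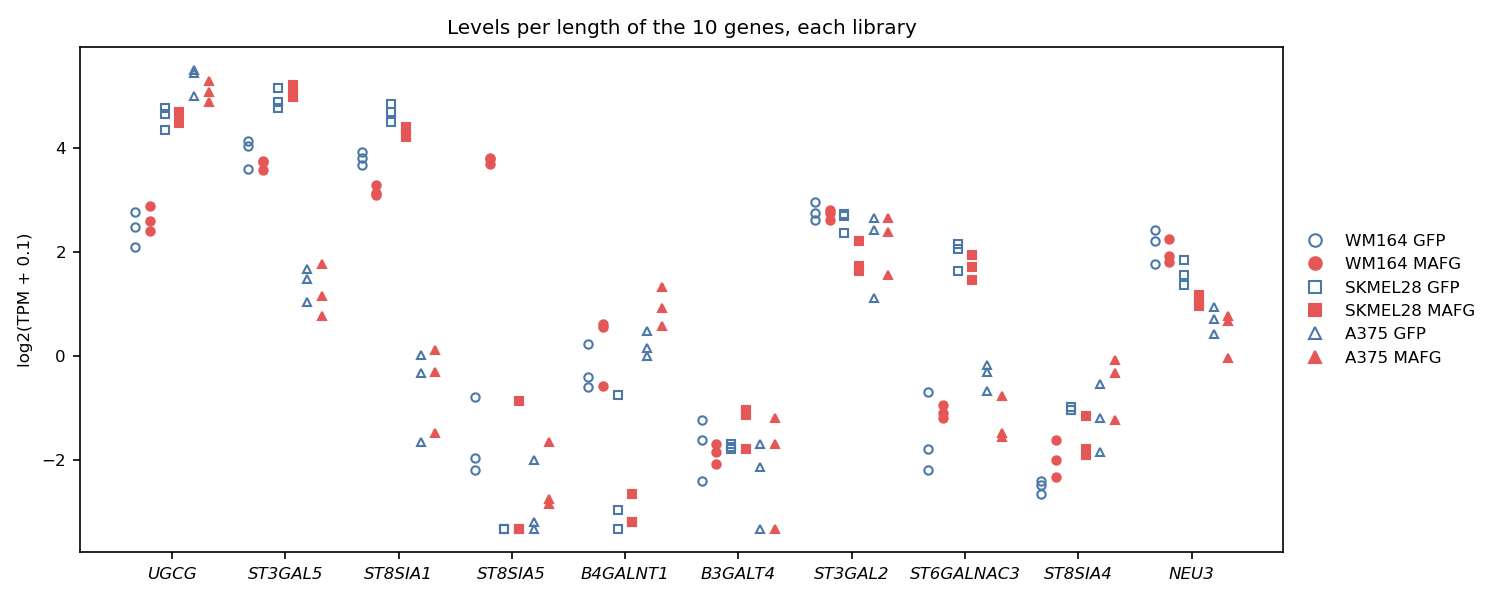
Level per length, as log2(TPM + 0.1), of each gene in every library (blue open symbols GFP, red filled symbols MAFG, with circles for WM164, squares for SKMEL28 and triangles for A375). ST3GAL5 and ST8SIA1 lie low in A375, UGCG lies highest there, and ST8SIA5 reaches the level of ST3GAL5 in WM164 with MAFG.

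The other 65 genes of the pathway, listed by function, were tested in the same libraries, and these lists too were chosen with earlier results of these data known. In WM164, 53 could be tested and 4 rose and 2 fell past both thresholds. In SKMEL28, 0 of 52 rose and 2 fell, and in A375, 0 of 49 passed either way. For these counts of 0 by edgeR, an unadjusted p under 0.05 with a change over 2-fold was reached by 0 genes that were higher in SKMEL28 and by 1 in A375. Counted in either direction, DESeq2 called 2 genes in SKMEL28 and 0 in A375, and edgeR also called 2 and 0. By the adjusted p alone, 7 rose and 21 fell in WM164, 7 rose and 17 fell in SKMEL28, and 1 rose and 0 fell in A375, where 7 genes that were higher and 2 that were lower had an unadjusted p under 0.05. The median log2 fold change was -0.13, -0.16 and 0.03. The background shares are those given above for all genes.

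ST8SIA2, the other polysialyltransferase, rose in WM164 from 12, 20 and 17 reads to 195, 148 and 208, a log2 fold change of 3.40 ± 0.25 (adjusted p = 7.34e-09), while it was at 5 to 22 reads in SKMEL28 and 0 in A375. Of the 3 known carriers of polysialic acid tested in WM164, CADM1 rose by 2.69 ± 0.06, from 739–864 to 4809–6153 reads (adjusted p = 1.98e-15), and NCAM1 fell by 1.62 ± 0.07, from 75.0–77.6 to 23.1–26.0 CPM (adjusted p = 5.2e-12). NRP2, the other carrier, fell by 0.63 ± 0.06 (adjusted p = 2.17e-07). ST8SIA6, another sialyltransferase, fell by 1.34 ± 0.46 in WM164 from 20–41 to 11–16 reads (adjusted p = 0.0341). In A375, CADM1 was the single pathway gene past the adjusted p, at 0.95 ± 0.17 (adjusted p = 0.0365), a call that was lost in 5 of the 6 fits leaving out 1 library, with adjusted p from 0.00852 (without MAFG replicate 1) to 0.204 (without GFP replicate 2).

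B3GNT5, which starts lacto-series glycolipids from lactosylceramide, rose in WM164 from 6, 11 and 9 to 52, 60 and 63 reads, a log2 fold change of 2.66 ± 0.41 (adjusted p = 7.32e-05), and stayed well under its 10.8–13.7 CPM of SKMEL28. In SKMEL28, B3GALNT1, the globoside synthase, fell by 1.53 ± 0.24 (adjusted p = 0.000148) and CERS1, a ceramide synthase, by 1.01 ± 0.15 (adjusted p = 7.11e-05). ST3GAL1, a sialyltransferase acting mainly on O-glycans, rose by 1.08 ± 0.07 in WM164 (adjusted p = 8.76e-10) and by 0.47 ± 0.07 in SKMEL28 (adjusted p = 0.000131). ST3GAL1 was named after its values were seen, as the fourth of the genes that rose past both thresholds in WM164.

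The step between UGCG and ST3GAL5 changed little. B4GALT5 had a log2 fold change of -0.13 ± 0.06 in WM164 (adjusted p = 0.095) and fell by 0.16 ± 0.06 in SKMEL28 (adjusted p = 0.0429). B4GALT6 fell by 0.27 ± 0.08 in WM164 (adjusted p = 0.0112), with 0.03 ± 0.06 in SKMEL28 (adjusted p = 0.785). In A375 both had an adjusted p of 0.997. In a list of 10 genes of sialic acid supply, breakdown, modification and transport, 1 rose and 5 fell in WM164 by the adjusted p, beside 16.2% and 15.6% of all genes. The 5 that fell were not all genes of supply. In SKMEL28 3 of 9 rose and 0 fell, beside 14.6% and 15.3%. CMAS fell by 0.27 ± 0.10 (adjusted p = 0.0416, with overlapping libraries) and SLC35A1, the Golgi transporter of the donor, by 0.58 ± 0.18 (adjusted p = 0.0182) in WM164. The gene that rose there was GNE, which starts sialic acid synthesis, at 0.69 ± 0.08 (adjusted p = 1.22e-06), named after its values were seen.

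A list of 16 breakdown genes held enzymes and activators that act on gangliosides, with GBA2, which is not lysosomal, and enzymes of other lipids such as GLA, ARSA and SMPD1. In WM164, 0 of 13 rose and 8 fell by the adjusted p, beside 16.2% and 15.6% of all genes. In SKMEL28 1 of 13 rose (GLA) and 7 fell, beside 14.6% and 15.3%. None of these changed by over 2-fold, and 0 of 14 passed in A375, beside 0.780% and 0.0634%. HEXA, a lysosomal enzyme gene of GM2 breakdown, fell by 0.35 ± 0.06 in WM164 (adjusted p = 0.000224) and by 0.17 ± 0.06 in SKMEL28 (adjusted p = 0.0417). GLB1, the beta-galactosidase, fell by 0.19 ± 0.07 in WM164 (adjusted p = 0.0335), a direction that was opposite on the TPM scale, and by 0.25 ± 0.08 in SKMEL28 (adjusted p = 0.0206). WM164 gave this list a median log2 fold change of -0.21, SKMEL28 one of -0.17 and A375 one of 0.04.

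**Figure D4:**
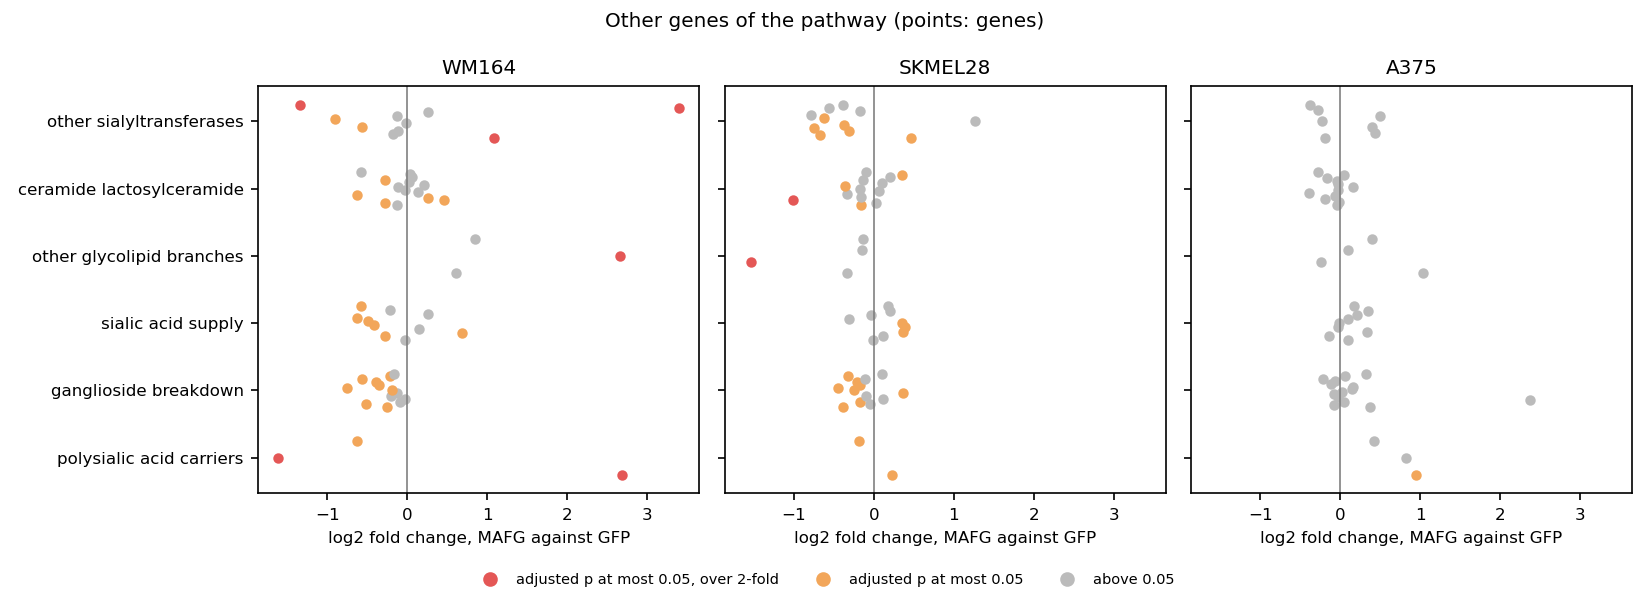
Log2 fold change of MAFG against GFP (horizontal axis) for the tested genes of the 6 other pathway lists in each line, 1 point a gene. Red points passed both thresholds, orange points the adjusted p alone, and in WM164 the points far to the right are ST8SIA2 at 3.40, CADM1 at 2.69 and B3GNT5 at 2.66.

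Tested as a difference of responses in a model of all 18 libraries, 5 of 57 other pathway genes differed between WM164 and SKMEL28 past both thresholds, beside 5.10% of 18767 genes. Between WM164 and A375 5 differed, beside 4.39%, and between SKMEL28 and A375 2 differed, beside 4.20%. The response of CADM1 was larger in WM164 by 2.46 ± 0.13 (SE) than in SKMEL28 (adjusted p = 4.89e-11) and by 1.74 ± 0.14 than in A375 (adjusted p = 2.6e-08). The response of B3GNT5 was larger by 2.82 ± 0.28 (adjusted p = 4.83e-07) and 2.89 ± 0.28 (adjusted p = 3.17e-07). ST3GAL3, a sialyltransferase of glycoproteins, fell in SKMEL28 (-0.68 ± 0.15, adjusted p = 0.00234) and had 0.43 ± 0.20 in A375 (adjusted p = 0.826), a signed difference of -1.12 ± 0.24 (adjusted p = 0.00416). Its SKMEL28 libraries had 14.3, 21.3 and 13.8 CPM with GFP and 10.5, 9.92 and 10.3 CPM with MAFG, so GFP replicate 2 added to the size of this fall. Of the fitted response differences of the 10 members, only some are given here, with no test. ST8SIA1 differed by -1.91 ± 0.28 and ST3GAL5 by -0.77 ± 0.15 between WM164 and A375, and by -0.70 ± 0.20 and -0.55 ± 0.13 between WM164 and SKMEL28. ST8SIA5 differed by 3.615 ± 0.889 between WM164 and A375, and ST8SIA4 by -1.63 ± 0.49 between SKMEL28 and A375.

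Across all 18 libraries, the genes most like ST8SIA5 by Pearson correlation of log2 CPM were SLC24A3 (r = 0.993), LCN2 (r = 0.992) and TESC (r = 0.988), out of 18767 genes. For ST8SIA1 they were LRRK2 (r = 0.998), PDK3 (r = 0.997) and SEMA6A (r = 0.996). These 18 points fall into 6 groups of 3 libraries from 3 lines, so the coefficients mostly describe differences between groups and carry no p-value.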

How the data were processed

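RNA-seq of the 18 libraries was deposited by the authors as 1 table of raw read counts per gene and 1 table of TPM (length-scaled transcript abundance). Per the submitters' processing notes and the study's methods, the authors trimmed reads with cutadapt 1.8.1, aligned them to GRCh38 with STAR 2.7.7a, counted reads per gene with featureCounts and estimated TPM with RSEM 1.3.0. Whether counting used strand was not given in the sources used here. Groups came from the labels. The members and all gene lists were chosen with earlier results of these data known.

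Counts were tested per line (6 libraries) with edgeR 4.0.16 in R 4.3.3, using TMM scaling, its default low-count filter, the quasi-likelihood test and Benjamini-Hochberg adjustment over all genes tested. Called genes had an adjusted p of at most 0.05 and a change over 2-fold. Response differences and levels between lines used 1 model of all 18 libraries. Floors (3 counts) cover counting error only, while the standard errors of fitted changes also take in the spread between libraries. Replicate libraries differed beyond sampling noise, with chi-square per degree of freedom of 5.90 to 96.7 over 18 pairs. Alternatives were DESeq2 1.42.0, limma 3.58.1 on log2(TPM + 1) and log2(TPM + 0.1), other filters and scaling, a replicate block and leaving out each library. The scripts were tested on simulated data. Genes were named as follows: all members, MAFG, genes of key steps (B4GALT5, B4GALT6, CMAS, SLC35A1, GLB1 and HEXA; 1 further gene of this rule is not reported here), up to 3 other called pathway genes per line and direction with the largest change and no overlap, and the 2 with the smallest adjusted p per response difference. GALC was 1 of these and is described with the results listed for a closer look.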

Additional observations from a re-analysis of the deposited data

Results flagged for a closer look

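The responses to MAFG of some pathway genes outside the 10 differed between lines in the test of the difference itself, on the log2 scale with adjusted p from edgeR. Between WM164 and SKMEL28 the responses of CADM1 (2.46), B3GNT5 (2.82), CERS1 (1.48, adjusted p = 2.26e-06), ST8SIA2 (3.96, adjusted p = 0.00101) and B3GALNT1 (2.14, adjusted p = 0.00627) were higher in WM164 as signed values. CERS1 and B3GALNT1 fell in SKMEL28, by more than their positive values in WM164. Between WM164 and A375 those of CADM1 (1.74), B3GNT5 (2.89) and ST3GAL1 (1.27, adjusted p = 2.5e-06) were higher in WM164 as signed values. The polysialic acid carriers NCAM1 (-2.44, adjusted p = 1.58e-06) and NRP2 (-1.06, adjusted p = 1.45e-05) fell in WM164 and had positive values in A375 that did not pass the test. Genes without a p here were given with it in the report, and the others were named after their values were seen. Between SKMEL28 and A375 the responses of ST3GAL3 (-1.12) and of GALC, the lysosomal galactosylceramidase, differed. The GALC difference had an adjusted p of 0.0197, but it rests on few reads: the MAFG libraries of SKMEL28 held 0, those with GFP 3 to 14, and A375 held 0 to 14 with GFP and 23 to 35 with MAFG, so no fold is given.

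2 of the 10 genes had differences of opposite sign between lines without overlap of libraries in CPM, though with overlap in TPM, and these differences were not tested. ST3GAL5 had a log2 fold change of -0.44 in WM164 against 0.11 in SKMEL28 and 0.33 in A375, and both of the latter groups overlapped when scaled over all 18 libraries. ST6GALNAC3 had 0.45 in WM164 against -0.42 in SKMEL28. No single value was checked for an outlying library in groups of 3, and A375 MAFG replicate 1, which stood apart over all genes, is described in the report.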

How the results depend on the processing

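The counts of members are a description, since the rule used these contrasts: they were 1 in WM164 and 0 in SKMEL28 under each alternative run. In A375 the 0 members became 1 with DESeq2, 2 without a count filter, 2 with all 18 libraries in 1 model and 0 to 1 when leaving out a library, the 1 without MAFG replicate 1. Other pathway genes called in WM164 fell from 6 to 3 on each TPM scale, and those past the adjusted p from 28 to 9 on log2(TPM + 1), 9 on log2(TPM + 0.1) and 6 without a filter. In SKMEL28 the 2 called became 0, 1 and 0 on these scales and 1 to 3 when leaving out a library (1 without GFP replicate 1, GFP replicate 3 or MAFG replicate 2), and the 24 past the adjusted p became 15 in the model of 18 libraries and 13 with TPM without a filter. In A375 the 1 past the adjusted p (CADM1) became 5 in the model of 18 libraries, 0 on each TPM scale and 0 to 1 when leaving out a library, and the 0 called became 0 to 1 (1 without MAFG replicate 1). Response differences called went from 5, 5 and 2 to 3 (WM164 minus SKMEL28), 3 (WM164 minus A375) and 1 (SKMEL28 minus A375) with at least 10 counts in every library, to 3 and 0 for the first and last on log2(TPM + 1), and to 1 to 3 for the last when leaving out a library (1 without SKMEL28 GFP replicate 2). GLB1 in WM164 turned from -0.19 to 0.072 on log2(TPM + 1), 0.077 on log2(TPM + 0.1) and 0.072 without a TPM filter. The median of all genes moved by 0.14 (log2(TPM + 1)) in WM164, -0.14 in SKMEL28 and -0.10 in A375. In WM164 the median was 0.163 on log2(TPM + 0.1) and 0.042 without a filter. Relative to this median GLB1 stayed lower on the filtered scales and lay slightly above it without a filter. The cause of these changes was not tested.

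The replicate numbers did not pair the libraries: same-number correlations of deviations ran from -0.09 to 0.10 in WM164, -0.06 to 0.05 in SKMEL28 and -0.21 to 0.05 in A375. With the replicate block, pathway genes past the adjusted p in A375 numbered 0 in place of 1, and called genes overall numbered 1056 in place of 1105 in WM164 and 64 in place of 105 in A375. Depth limits ST8SIA5 in SKMEL28 and A375, B3GALT4 everywhere and B4GALNT1 in SKMEL28, all with few reads.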
